A study of Homo sapiens with 48 samples.

Results

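Cells depleted of Hic-5 were compared after 24 h and after 4 h of dexamethasone, a synthetic glucocorticoid, to describe the late part of their hormone response. The comparison holds 8 of the 48 arrays of the study. They are the 4 arrays titled siHic5_2 at 24 h and the 4 titled siHic5_2 at 4 h, taken by title alone. All groups were cultures of 1 clone of the U2OS osteosarcoma line that stably expresses wild-type rat glucocorticoid receptor alpha. The siHic5_2 cells had received 60 pmol per well of 1 siRNA against Hic-5. Cells with a nonspecific siRNA (siNS) at 24 h and 4 h, and cells listed as non-infected with none (NI) at the same times, served as controls, with 4 arrays in each group. Hormone was added 2 days after transfection for 24 h and 3 days after it for 4 h, and all wells were harvested together, so the time since transfection was similar in both. The labels used here give no dose of dexamethasone. Whether the 4 replicates of a group were grown separately is not stated either. The p-values come from 1 fit of all 48 arrays. Each therefore reflects only the spread among replicate arrays, pooled over the groups of the study, which may be technical.

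Hic-5, the product of TGFB1I1, is a LIM domain protein of focal adhesions, closely related to paxillin, that also enters the nucleus and acts as a coregulator of steroid receptors. The glucocorticoid receptor binds hormone in the cytoplasm, moves to the nucleus and acts at DNA. Its direct targets respond within hours, while later changes also include secondary targets of the factors it induces. In osteosarcoma and other cells glucocorticoids are known for slowing proliferation, raising genes of fuel use and lowering genes of inflammation and matrix.

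Each array gave a log2 level for 11886 genes, and on the 8 arrays 31.7 to 36.3% of all probes were above background. Median intensities were 144.2 to 158.5 against negative-control medians of 123.6 to 136.6. Between 2 replicate arrays the SD of the difference across the 20912 probes tested was 0.365 to 0.492 within siHic5_2 24 h and 0.407 to 0.569 within siHic5_2 4 h. Markers of the labelled mesenchymal cell type were present: VIM averaged 13.89 at 24 h and 14.07 at 4 h, and COL1A1 averaged 12.26 at 24 h and 13.24 at 4 h. Of the 10 mesenchymal markers measured, 1 was higher and 7 were lower at 24 h, with a median difference of -0.55. Of 4 blood cell markers, CD68 was above background on all 8 arrays, averaging 7.97 at 24 h and 8.56 at 4 h, CD79A on 1 array at each time, CD14 on 0 arrays at 24 h and 1 at 4 h, and SPI1 on none. Of 3 endothelial markers, VWF was above background on 0 arrays at 24 h and 4 at 4 h, TEK on 1 at 24 h and 2 at 4 h, and KDR on none. Of 3 epithelial markers, EPCAM was above background on all 8 arrays, averaging 7.89 at 24 h and 8.38 at 4 h. KRT14 was above it on 3 arrays at each time and ELF3 on 1 at each time. The part of these cell types in the results was not tested.

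The knockdown was visible in both groups. TGFB1I1 had log2 levels of 5.33, 4.88, 6.01 and 5.29 in siHic5_2 cells at 24 h, and of 5.35, 5.63, 5.27 and 5.95 at 4 h, above background on none of the 8 arrays. In siNS cells it averaged 8.42 ± 0.16 at 24 h and 9.40 ± 0.35 at 4 h (SD, n = 4 each), above background on every array. It was at least 5.17-fold lower in siHic5_2 than in siNS cells at 24 h and at least 9.66-fold lower at 4 h. Here and below, "at least" sets the mean of the brighter group against the lowest signal above background on each array of the other group, or against the gene's own value where that was higher. A second TGFB1I1 probe was dim in all groups, with means of 5.03 to 5.79, and was left out.

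A gene was called where limma's adjusted p for siHic5_2 24 h minus 4 h, with the replicate number as a block, was under 0.05 (Benjamini-Hochberg over 20912 probes). By this rule 44.0% of the genes differed, 2720 higher (22.9%) and 2509 lower (21.1%) at 24 h. Of the higher genes 602 (5.06% of all) differed 2-fold or more, as did 602 of the lower genes (5.06% of all). With arrays scaled to a common median the lower calls were fewer, 3808 probes higher and 2526 lower (60.1% higher), against 4192 and 4031 of 20912 probes as deposited (51.0% higher). The median size over called genes was 0.65 on the log2 scale. All 4 same-numbered pairs had the sign of the call in 2438 of the higher and 2269 of the lower genes. For 3601 genes (30.3%) the 24 h and 4 h arrays did not overlap. Among the higher genes 103 were above background on all 4 arrays at 24 h and on none at 4 h, and 61 of these were also above it on none at 0 and 2 h. Among the lower genes 77 were above background on all 4 arrays at 4 h and on none at 24 h.

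The genes that rose most encode membrane, secreted and metabolic proteins. PNLIP, pancreatic triglyceride lipase, had levels of 12.91, 13.18, 13.59 and 12.70 at 24 h, against 8.23, 8.30, 8.37 and 8.28 at 4 h. The 4 h arrays were nearly equal and lay far below every 24 h array. PNLIP rose by 4.80 (SE 0.27, limma adjusted p = 1.64e-15), and it had averaged 4.77 ± 0.06 at 0 h and 6.21 ± 0.39 at 2 h, so its level was higher at each later time. DNER, a transmembrane ligand of Notch receptors, had 11.49, 10.92, 11.70 and 10.95 at 24 h, against 6.47, 6.06, 6.03 and 6.82 at 4 h. It had the largest difference among these genes, 4.92 (SE 0.23, limma adjusted p = 3.34e-17). FAM107A, an actin-binding protein known as a glucocorticoid-induced stress gene, had 11.94, 11.12, 12.31 and 10.71 at 24 h, against 6.61, 6.84, 6.94 and 7.60 at 4 h. Its 4 pairs rose by 3.11 to 5.37 (mean 4.52, SE 0.25, limma adjusted p = 1.64e-15).

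ART3, of the ADP-ribosyltransferase family, rose by 3.94 (SE 0.27), SLC25A18, a mitochondrial glutamate carrier, by 3.83 (SE 0.23), and the actin-like gene ACTL8 by 3.78 (SE 0.25). The neuronal adhesion molecule NRCAM rose by 3.80 (SE 0.18), and its other probe rose by 4.51. ART3 also shows the widest 24 h spread of the 15, with 10.50, 10.08, 11.80 and 9.77 against 6.17, 6.93, 6.42 and 6.87 at 4 h, yet its groups did not overlap. None of these 4 had a limma adjusted p above 3.43e-13.

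Several of the 15 highest genes were not above background on any siHic5_2 4 h array and on every 24 h array, so only a bound can be given. RIPOR2 had 10.42, 10.29, 11.08 and 10.11 at 24 h, against 5.87, 5.35, 6.35 and 5.15 at 4 h, at least 20.4-fold higher (limma adjusted p = 8.07e-14). Unlike the others it had been above background on all 4 arrays at 0 h, at 7.78 ± 0.19, and averaged 5.80 ± 0.69 at 2 h. GPM6B, a membrane protein of the proteolipid family, had 9.26, 9.57, 10.29 and 9.15 at 24 h, against 4.80, 4.96, 5.00 and 4.99 at 4 h, at least 10.9-fold higher (limma adjusted p = 7.02e-19). Its 3 probes differed by 0.92 to 4.63, so the size depends on the probe. CRTAC1, a secreted protein of cartilage, was at least 11.7-fold higher, the cysteine protease inhibitor CST2 at least 9.49-fold, and the flavin monooxygenase FMO5 at least 8.01-fold. The peptide hormone genes EDN3 (endothelin 3) and UTS2B (a urotensin) were at least 6.85-fold and 6.45-fold higher, and the adhesion G protein-coupled receptor ADGRF4 at least 5.23-fold. The limma adjusted p of these 6 was at most 7.1e-13. CST2 has near-identical relatives, and whether its probe also detects them was not tested.

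**Figure D1:**
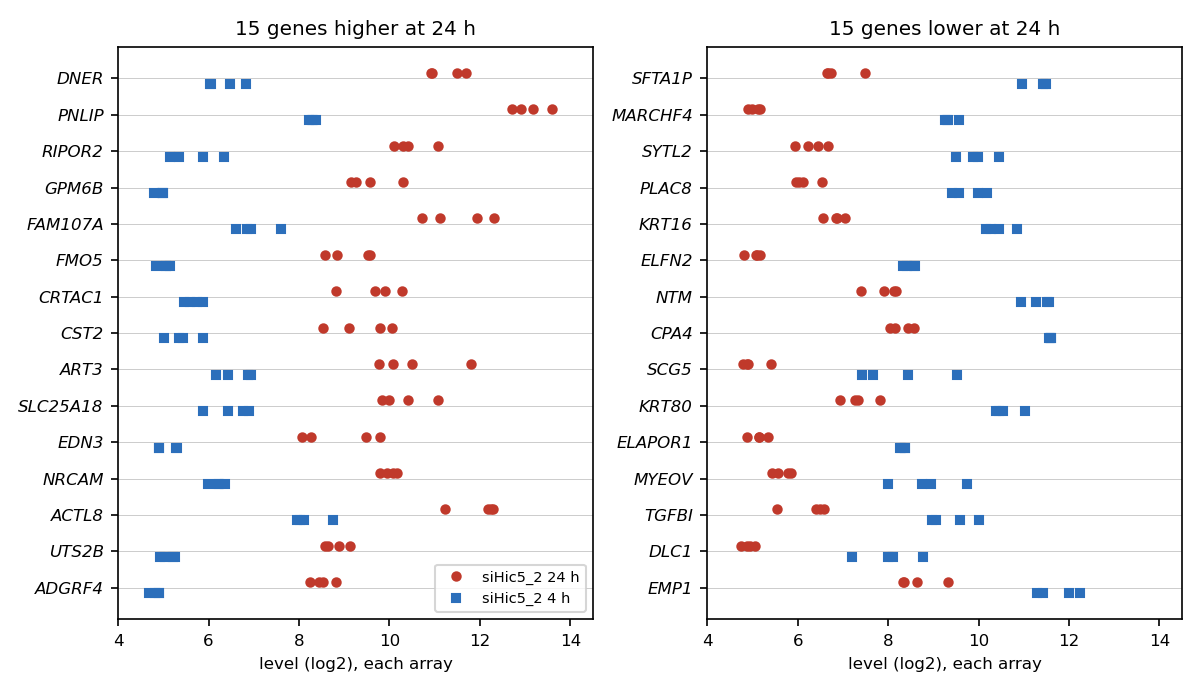
Log2 level (x axis) on each siHic5_2 array of the 15 genes with the highest and the 15 with the lowest differences (rows), with 24 h arrays as red circles above 4 h arrays as blue squares. For all 30 genes the 4 points of one time lie apart from the 4 of the other. PNLIP runs from 12.70 to 13.59 at 24 h and from 8.23 to 8.37 at 4 h.

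The genes that fell most include keratins, secreted proteins and membrane proteins. SFTA1P, a long non-coding RNA of a surfactant-related pseudogene, had 6.73, 7.48, 6.67 and 6.65 at 24 h, against 10.96, 11.50, 11.47 and 11.43 at 4 h. It fell by 4.46 (SE 0.13, limma adjusted p = 1.48e-22), the smallest p of these 30 genes. MARCHF4, a membrane-bound ubiquitin ligase, had 4.89, 5.13, 4.98 and 5.17 at 24 h, against 9.26, 9.29, 9.56 and 9.32 at 4 h. It was not above background at 24 h and at least 9.91-fold lower there (limma adjusted p = 2.12e-13). Carboxypeptidase CPA4 had 8.58, 8.03, 8.15 and 8.43 at 24 h, against 11.56, 11.60, 11.60 and 11.57 at 4 h, a fall of 3.29 (SE 0.19, limma adjusted p = 5.05e-15). The 4 h arrays of CPA4 were nearly equal, with an SD of 0.02.

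Keratins KRT16 and KRT80, intermediate filament proteins, fell by 3.61 (SE 0.23) and 3.27 (SE 0.18). KRT16 has close relatives and pseudogenes, and whether its probe also detects them was not tested. TGFBI, a secreted matrix protein named for its induction by TGF-beta, had at most 6.58 on a 24 h array, against at least 8.97 on a 4 h array, and fell by 3.15 (SE 0.25, limma adjusted p = 6.79e-12). The neural adhesion protein NTM fell by 3.42 (SE 0.20), and its 3 probes gave differences between -3.42 and -2.30. PLAC8 fell by 3.63 (SE 0.15) and the membrane protein EMP1 by 3.07 (SE 0.21). SYTL2, a Rab27 effector in vesicle transport, fell by 3.64 (SE 0.18) on the probe with the higher mean, while its other probe gave 0.33, so its probes disagree in sign.

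MYEOV, ELFN2, ELAPOR1, SCG5 and DLC1 were not above background at 24 h. MYEOV, a gene found overexpressed in myeloma, was at least 7.01-fold lower, ELFN2, a synaptic membrane protein, at least 5.37-fold (its probes gave -3.43 and -0.60) and ELAPOR1 at least 4.85-fold. SCG5, a chaperone of a prohormone convertase, was at least 4.65-fold lower and DLC1 at least 3.91-fold. The limma adjusted p of all 30 leading genes was at most 9.9e-09, that of SCG5. Both groups were on 1 slide together, as 24 h replicate 1 and 4 h replicate 3. There 96.3% of called and 69.3% of uncalled genes had the sign of their fitted difference. All 30 leading genes did too, which was fixed in advance because their 24 h and 4 h arrays did not overlap. The calls rest in part on those arrays, so this is no separate check.

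The genes did not all move at the same time. In siHic5_2 cells FMO5 averaged 4.83, 4.89, 5.03 and 9.13 at 0, 2, 4 and 24 h, and GPM6B 5.05, 4.97, 4.94 and 9.57, with the high level at 24 h alone. FAM107A averaged 4.93, 5.46 and 11.52 at 0, 2 and 24 h and was above background on all 4 arrays at 4 h, and PNLIP was likewise higher at 4 h than at 0 h. MARCHF4 averaged 9.88, 9.85, 9.36 and 5.04, low at 24 h alone, while MYEOV averaged 10.28, 9.90, 8.86 and 5.66. The differences from 0 h were not tested here.

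**Figure D2:**
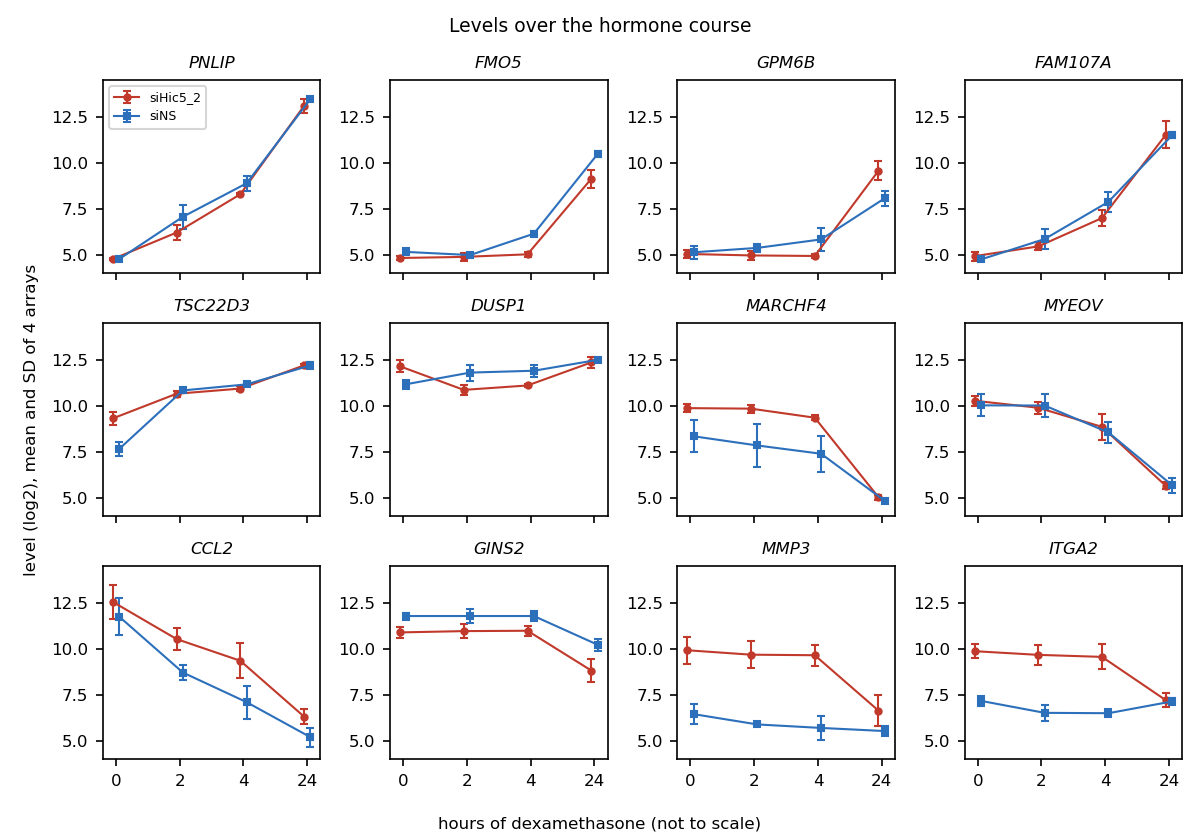
Mean log2 level and SD of 4 arrays (y axis) of 12 genes at 0, 2, 4 and 24 h of dexamethasone (x axis, not to scale) in siHic5_2 cells (red circles) and siNS cells (blue squares). PNLIP, FMO5, GPM6B and FAM107A are highest at 24 h in both, MARCHF4 and MYEOV are lowest there, and ITGA2 and MMP3 are high in siHic5_2 cells at 0 to 4 h and lower in siNS cells.

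Known glucocorticoid-induced genes were mostly higher at 24 h than at 4 h. Of 35 measured, 22 were higher (62.9%, against 22.9% of all genes) and 4 lower (11.4%, against 21.1%). The median difference was 0.88, against 0.01 over all genes. KLF9, a Krüppel-like factor that opposes proliferation, had 12.43, 11.96, 12.86 and 12.19 at 24 h, against 11.01, 10.10, 10.30 and 10.72 at 4 h, and rose by 1.83 (SE 0.19, limma adjusted p = 2.15e-09). PDK4, the kinase that restrains pyruvate oxidation, rose by 1.81 (SE 0.25, limma adjusted p = 5.04e-07) and IGFBP1, which binds insulin-like growth factors, by 1.79 (SE 0.27, limma adjusted p = 2.18e-06). IGFBP1 was above background on 4 arrays at 24 h and on 1 at 4 h. The groups of these 3 genes did not overlap.

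TSC22D3, a leucine zipper protein also called GILZ that restrains inflammation, had 12.11, 12.33, 12.24 and 12.12 at 24 h, against 10.99, 10.76, 11.02 and 10.98 at 4 h, and rose by 1.26 (SE 0.14, limma adjusted p = 8.09e-09). FKBP5, a co-chaperone that dampens the receptor, rose by 1.20 (SE 0.15), the MAP kinase phosphatase DUSP1 by 1.26 (SE 0.15) and the kinase SGK1 by 0.61 (SE 0.16). DUSP1 averaged 12.15, 10.87, 11.11 and 12.36 at 0, 2, 4 and 24 h in siHic5_2 cells, so that its 24 h level was close to that before hormone. FKBP5 averaged 11.01, 11.01, 11.19 and 12.39, with the higher level at 24 h alone. The clock gene PER1 was not called (0.11, SE 0.33), and its sign turned without 24 h replicate 3 (-0.24).

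The 4 list members that fell were picked out after their values were seen. LCN2, a siderophore-binding protein, had 6.47, 6.88, 6.66 and 6.55 at 24 h, against 7.06, 7.71, 7.70 and 7.88 at 4 h, and fell by 0.95 (limma adjusted p = 2.64e-05). The acute-phase gene SAA1 fell by 0.83, CAVIN2, a coat protein of caveolae, by 0.87, and TNFAIP3, an inhibitor of NF-kappa-B, by 1.10, each with overlapping groups. Reference genes moved little: ACTB differed by 0.07 (limma adjusted p = 0.566) and GAPDH by -0.09 (limma adjusted p = 0.405), and of 11 measured 2 were higher and 1 lower (0 and 0 with arrays scaled to a common median). NR3C1, the human receptor gene, here beside the rat receptor of the clone, rose by 0.60 (limma adjusted p = 0.0266). It averaged 6.66 at 0 h and 6.43 at 24 h in siHic5_2 cells, so its rise did not pass the level before hormone. The NR3C1 call ended without 24 h replicate 1 (0.38) or 4 (0.60), or 4 h replicate 3 (0.50) or 4 (0.58).

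Genes of DNA replication fell together. Of 37 measured, 33 were lower (89.2%, against 21.1% of all genes) and 0 higher (against 22.9%), with a median of -1.20. In 28 the 24 h arrays did not overlap the 4 h arrays, against 30.3% of all genes. GINS2, a subunit of the replicative helicase, had 8.71, 9.70, 8.13 and 8.76 at 24 h, against 10.96, 11.39, 10.74 and 10.85 at 4 h, and fell by 2.16 (SE 0.15, limma adjusted p = 5.7e-13). Its level had been steady before, at 10.90, 10.97 and 10.99 at 0, 2 and 4 h. CDC45, its helicase partner, had 8.86, 9.99, 8.16 and 9.23 at 24 h, against 10.91, 11.30, 11.10 and 10.83 at 4 h, and fell by 1.97 (SE 0.19, limma adjusted p = 7.93e-10). The initiation factors MCM10 and CDT1 fell by 1.88 (SE 0.20) and 1.86 (SE 0.25). Not called were CDC6 (-0.14), GINS1 (-0.03), RRM2 (-0.20) and SLBP (-0.07). In RNA from whole cultures, fewer cells in a phase of the cycle and less RNA per cell cannot be told apart.

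Genes of mitosis fell as well, though less clearly between the groups than within pairs. Of 39 measured, 34 were lower (87.2%, against 21.1% of all genes) and 0 higher (against 22.9%), with a median of -0.77. In all 4 pairs 34 were lower, but in 5 alone did the groups not overlap, against 30.3% of all genes. Without the replicate block 20 of the 39 were lower. AURKB, a kinase of the chromosomal passenger complex, had 7.22, 8.67, 6.16 and 7.76 at 24 h, against 8.89, 9.42, 8.81 and 9.56 at 4 h, and fell by 1.72 (SE 0.20, limma adjusted p = 3.8e-08). Replicate 2 was the highest of the 24 h arrays and among the higher at 4 h. The motors KIF4A and KIF2C fell by 1.32 (SE 0.18) and 1.26 (SE 0.17), and BIRC5 (survivin) by 1.25 (SE 0.14). CKS2 (0.10) was the 1 member above 0, named for that.

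Promoters of these 2 lists are shown because their members fell together. RefSeq windows on GRCh38.p14, from 250 bases before to 50 after a gene's start, were found for 33 genes of each list and searched on both strands. E2F sites (TTTGGCGC, TTTCGCGC, TTTCCCGC or TTTGGCGG) bind the factors that drive S phase genes. They were in 21 of the 33 replication windows (63.6%), in 3.43% of 27305 promoters and in 5.62% of the 9548 windows of measured genes. The cell cycle homology region (CHR, TTTGAA), known from G2/M genes, was in 22 of the 33 mitosis windows (66.7%), in 15.4% of all promoters and in 9.97% of the windows of measured genes. These lists are defined by function and such motifs are known in them, so the shares describe the lists and not the hormone effect. Among genes called and at least 2-fold lower the shares were 8.32% for E2F sites and 13.6% for the CHR, and among those 2-fold higher 3.21% and 11.8%. The windows of the members with the largest falls that hold a match follow, 5′ to 3′, with the match in capitals. GINS2 lies at chr16:85688905-85689204, minus strand, CDC45 at chr22:19479670-19479969, plus strand, KIF4A at chrX:70289854-70290153, plus strand and CENPF, a kinetochore protein that fell by 1.20, at chr1:214602945-214603244, plus strand.
GINS2, E2F site: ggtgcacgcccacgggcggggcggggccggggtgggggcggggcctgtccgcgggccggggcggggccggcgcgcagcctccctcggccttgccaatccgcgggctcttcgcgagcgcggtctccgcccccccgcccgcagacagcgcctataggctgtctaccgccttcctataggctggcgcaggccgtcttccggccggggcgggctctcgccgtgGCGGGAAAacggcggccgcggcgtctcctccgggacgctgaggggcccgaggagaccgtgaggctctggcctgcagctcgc
CDC45, E2F site: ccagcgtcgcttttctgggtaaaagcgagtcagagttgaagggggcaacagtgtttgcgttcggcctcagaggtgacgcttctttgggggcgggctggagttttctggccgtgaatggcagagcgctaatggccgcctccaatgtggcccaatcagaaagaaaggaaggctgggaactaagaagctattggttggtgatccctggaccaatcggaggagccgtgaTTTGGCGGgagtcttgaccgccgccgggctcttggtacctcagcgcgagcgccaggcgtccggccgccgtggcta
KIF4A, CHR: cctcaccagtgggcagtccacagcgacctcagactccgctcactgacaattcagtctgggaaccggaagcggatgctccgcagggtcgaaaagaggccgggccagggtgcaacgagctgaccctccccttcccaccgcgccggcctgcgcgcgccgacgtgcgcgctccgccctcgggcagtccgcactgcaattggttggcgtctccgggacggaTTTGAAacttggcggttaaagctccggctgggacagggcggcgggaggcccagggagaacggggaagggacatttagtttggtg
CENPF, CHR: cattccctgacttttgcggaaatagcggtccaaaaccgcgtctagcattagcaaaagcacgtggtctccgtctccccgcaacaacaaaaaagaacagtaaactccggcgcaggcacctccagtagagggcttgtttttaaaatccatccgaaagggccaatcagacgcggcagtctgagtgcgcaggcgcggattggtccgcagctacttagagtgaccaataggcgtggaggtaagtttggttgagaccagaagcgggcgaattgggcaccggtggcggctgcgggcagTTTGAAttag

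The palindromic glucocorticoid response element was in 1 of 29 windows of the glucocorticoid-induced list, in 0.388% of all promoters and in 0.272% of the windows of measured genes. It was in 6 of 467 windows (1.28%) of genes called and at least 2-fold higher and in 3 of 457 (0.656%) of those at least 2-fold lower. The list window that held it is that of TXNIP, which restrains glucose uptake, at chr1:145996530-145996829, minus strand, shown with the element in capitals.
TXNIP: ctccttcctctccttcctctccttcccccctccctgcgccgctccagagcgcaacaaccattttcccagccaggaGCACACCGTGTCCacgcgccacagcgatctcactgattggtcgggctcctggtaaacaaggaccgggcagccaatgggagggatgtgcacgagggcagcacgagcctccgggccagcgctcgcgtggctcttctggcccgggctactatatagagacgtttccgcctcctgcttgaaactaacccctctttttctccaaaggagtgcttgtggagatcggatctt
TXNIP, named for this match and not by size, had 12.34, 12.59, 13.42 and 12.77 at 24 h, against 11.60, 10.89, 11.40 and 11.50 at 4 h, and rose by 1.43 (limma adjusted p = 0.000101). In siNS cells TXNIP differed by -0.22 (limma adjusted p = 0.584), and the 2 changes differed by 1.65 (limma adjusted p = 0.00722, without the block 0.025).

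**Figure D3:**
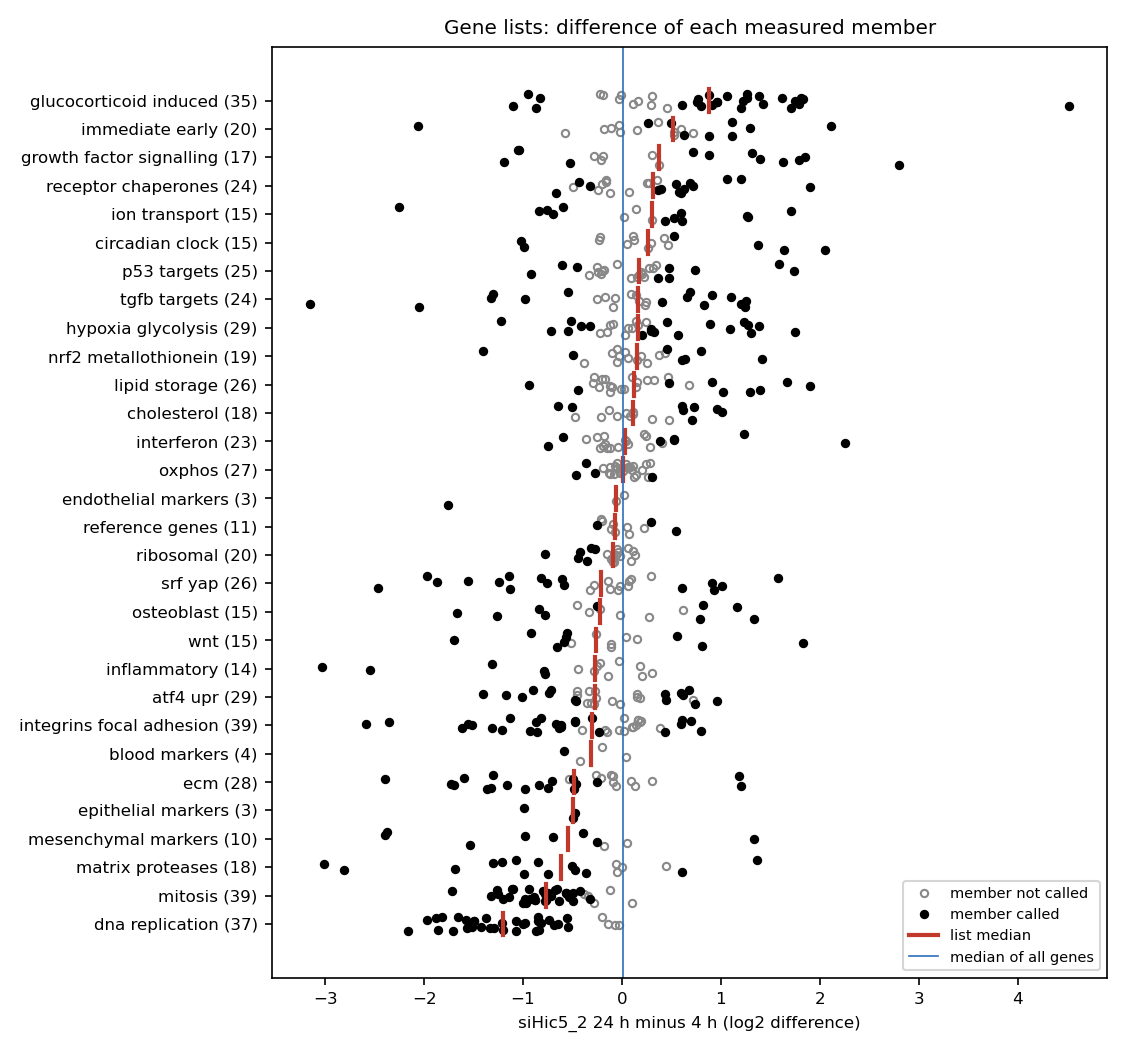
Log2 difference of siHic5_2 24 h minus 4 h (x axis) for each measured member of the 30 gene lists (rows, number measured in parentheses), black where called and grey where not, with the list median in red and the median of all genes, 0.01, as a blue line. The glucocorticoid-induced list has the highest median, 0.88, and the DNA replication list the lowest, -1.20.

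Matrix, protease and adhesion genes were more often lower than higher at 24 h. Of 28 matrix genes 16 were lower and 2 higher (median -0.48), of 18 matrix proteases and their inhibitors 12 and 2 (median -0.62), and of 39 integrins and focal adhesion adaptors 20 and 5 (median -0.30). The shares lower were 57.1%, 66.7% and 51.3%, against 21.1% of all genes. Those higher were 7.14%, 11.1% and 12.8%, against 22.9%. With arrays scaled to a common median 1 protease gene and 3 adhesion genes were higher. MMP9, a gelatinase, had 6.75, 9.39, 5.70 and 9.10 at 24 h, against 10.11, 10.52, 10.93 and 10.63 at 4 h, and fell by 2.81 (SE 0.49, limma adjusted p = 2.26e-05). Replicates 2 and 4 stayed well above 1 and 3 at 24 h. COL13A1, a transmembrane collagen, fell by 2.40 (SE 0.29), the fibulin EFEMP1 by 1.73 (SE 0.13), the proteoglycan BGN by 1.70 (SE 0.32, groups overlapping) and tenascin TNC by 1.60 (SE 0.17). PLAU, the urokinase plasminogen activator, fell by 1.69 (SE 0.21), while the protease ADAMTS9 rose by 1.37 (SE 0.20). The matrix genes that rose were COL6A1 (1.18, groups overlapping) and the collagen cross-linker LOX (1.20), named for being 2.

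Both relatives of Hic-5 fell. LPXN (leupaxin) had 7.34, 7.34, 6.94 and 7.37 at 24 h, against 10.53, 9.19, 9.63 and 10.01 at 4 h, and fell by 2.59 (SE 0.31, limma adjusted p = 3.21e-08). PXN (paxillin) had 7.63, 7.86, 7.60 and 8.06 at 24 h, against 8.66, 8.38, 8.72 and 8.70 at 4 h, and fell by 0.82 (SE 0.19, limma adjusted p = 0.000747). Neither gene's groups overlapped. PXN had averaged 7.84 ± 0.50 at 0 h in siHic5_2 cells, close to 7.79 ± 0.21 at 24 h. ITGA3, a laminin-binding integrin subunit, fell by 1.62 (SE 0.16; its other probe by 0.78) and the LIM protein FHL2 by 1.56 (SE 0.18). The hyaluronan receptor CD44 fell by 2.37 (SE 0.22), the TGF-beta coreceptor ENG by 2.40 (SE 0.24) and the cadherin CDH2 by 1.54 (SE 0.10). RUNX2, the master factor of osteoblasts, rose by 1.34 (SE 0.19).

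TGF-beta/SMAD targets went both ways, with 9 of 24 higher (37.5%, against 22.9% of all genes) and 6 lower (25.0%, against 21.1%), and a median of 0.16. Beside TGFBI, the latent TGF-beta binding protein LTBP2 fell by 2.05 (SE 0.22), thrombospondin THBS1 by 1.32 (SE 0.19) and the protease inhibitor TIMP3 by 1.30 (SE 0.30, groups overlapping). Of 26 SRF, YAP and contractile genes 5 were higher (19.2%, against 22.9% of all genes) and 11 lower (42.3%, against 21.1%). The smooth muscle protein CNN1 fell by 2.47 (SE 0.17) and the receptor tyrosine kinase AXL by 1.97 (SE 0.13). Myosin light chain kinase MYLK was at least 2.78-fold lower, not above background at 24 h, and CCN1, a matricellular protein, rose by 1.58 (SE 0.30). CCN1 averaged 11.69 at 0 h, 8.81 at 4 h and 10.39 at 24 h, so it stayed below its level before hormone.

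Of 14 inflammatory genes measured, 5 were lower (35.7%, against 21.1% of all genes) and 0 higher (against 22.9%), with a median of -0.27. The chemokine CCL2 had 6.88, 6.11, 6.39 and 5.95 at 24 h, against 8.75, 8.57, 9.47 and 10.67 at 4 h, and fell by 3.03 (SE 0.51, limma adjusted p = 1.19e-05). It averaged 12.56, 10.54 and 9.36 at 0, 2 and 4 h, lower at each later time. The NF-kappa-B subunits RELB and NFKB2 fell by 2.55 (SE 0.32) and 1.31 (SE 0.19) and the kinase IRAK2 by 0.79 (SE 0.22). Without 4 h replicate 3, 1 inflammatory gene was higher.

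Some genes of hormone and fuel signalling rose. Of 17 IGF and insulin signalling genes 8 were higher (47.1%, against 22.9% of all genes) and 4 lower (23.5%, against 21.1%), with a median of 0.37. GHR, the growth hormone receptor, had 11.48, 11.51, 11.92 and 11.54 at 24 h, against 8.94, 8.45, 8.88 and 8.97 at 4 h, and rose by 2.80 (SE 0.15, limma adjusted p = 1.25e-15). PIK3R1, the regulatory subunit of PI3 kinase, rose by 1.85 (SE 0.18; its other probe by 0.61) and the mTOR inhibitor DEPTOR by 1.63 (SE 0.20). Of 26 lipid storage genes 7 were higher (26.9%, near the 22.9% of all genes) and 2 lower (7.69%, against 21.1%), with a median of 0.12. The mitochondrial coactivator PPARGC1A rose by 1.90 (SE 0.25), the phosphatidate phosphatase LPIN1 by 1.67 (SE 0.14), the lipid droplet coat protein PLIN2 by 1.40 (SE 0.11) and the acyl-CoA synthetase ACSL1 by 1.29 (SE 0.19). Of 18 sterol genes 6 were higher (33.3%, against 22.9% of all genes) and 2 lower (11.1%, against 21.1%). LSS rose by 1.01 (SE 0.18, with 0.17 to 1.01 over 3 probes) and SC5D by 0.96 (SE 0.18).

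Of 15 ion transport genes 7 were higher (46.7%, against 22.9% of all genes) and 5 lower (33.3%, against 21.1%). The sodium channel subunit SCNN1A rose by 1.71 (SE 0.28), the amino acid transporter SLC38A2 by 1.27 (SE 0.15), and the potassium channel KCNA5 fell by 2.25 (SE 0.20). KCNA5 averaged 7.14, 11.26, 11.85 and 9.61 at 0, 2, 4 and 24 h in siHic5_2 cells, so it stayed above its level before hormone. Of 15 clock genes 4 were higher (26.7%, against 22.9% of all genes) and 2 lower (13.3%, against 21.1%). The repressor BHLHE40 rose by 2.05 (SE 0.34) and the activator BMAL1 by 1.64 (SE 0.18). BHLHE40 averaged 11.62 at 0 h, 9.12 at 4 h and 11.17 at 24 h, so its rise did not pass the level before hormone. The receptor RORA rose by 1.38 (SE 0.19, with 0.37 to 1.38 over 4 probes), while PER2 fell by 1.02 (SE 0.16). Of 24 receptor, chaperone and coregulator genes 11 were higher (45.8%) and 3 lower (12.5%). The higher include the chaperone HSPA1B (0.72, SE 0.13) and the coactivator NCOA2, at least 1.49-fold higher. HSPA1B averaged 11.37 at 0 h and 11.57 at 24 h in siHic5_2 cells, close to its level before hormone. With arrays scaled to a common median, 3 ion transport genes and 1 of these chaperone and coregulator genes were lower.

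The shares of p53 targets (24.0%), ATF4 and unfolded protein response genes (24.1%) and interferon-stimulated genes (21.7%) that were higher were near the 22.9% of all genes. Of 25 p53 targets 6 were higher and 3 lower (3 higher without the replicate block), with TP53INP1 up by 1.74 (SE 0.20), SESN1 by 1.59 (SE 0.17) and DDB2 down by 0.92 (SE 0.18). Genes of the ATF4 and unfolded protein responses had 7 of 29 higher and 8 lower, including CEBPB (0.96) and the serine pathway enzymes PSAT1 (-1.17) and SHMT2 (-1.01). Without 24 h replicate 2 these higher genes numbered 4. Of 29 glycolysis and hypoxia genes 13 were higher (44.8%) and 6 lower (20.7%), or 7 and 2 with arrays scaled to a common median. MXI1 was at least 2.41-fold higher, DDIT4 rose by 1.39 (SE 0.24) and the peptide ADM by 1.30 (SE 0.21). Of 23 interferon-stimulated genes 5 were higher and 2 lower, among them the deubiquitinase USP18 (2.25, SE 0.18) and the factor IRF9 (1.23, SE 0.10). Those higher numbered 2 without 4 h replicate 2 and 3 without 4 h replicate 1 or without 24 h replicate 2 or 3. CEBPB and DDIT4, named above, had averaged 12.83 and 11.38 in siHic5_2 cells at 0 h, close to 12.71 and 11.24 at 24 h.

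Of 15 Wnt genes 3 were higher (1 without 24 h replicate 3) and 6 lower, the antagonist NKD1 up by 1.83 (SE 0.22) and CCN4 down by 1.70 (SE 0.25). Of 15 osteoblast genes 4 were higher (26.7%) and 5 lower (33.3%, or 3 genes without the replicate block). RUNX2 was among the higher, and the decoy receptor TNFRSF11B fell by 1.67 (SE 0.25). Of 19 NRF2 targets and metallothioneins 5 were higher (26.3%) and 2 lower (10.5%, or 0 genes without the replicate block). AKR1B10 rose by 1.42 (SE 0.24) and MT1X by 0.80 (SE 0.12). Respiratory chain genes had 1 of 27 higher and 3 lower, the lowest share of calls among lists of over 20 genes. Ribosomal protein genes had 0 of 20 higher and 6 lower (30.0%), with RPL7 down by 0.78, and 1 lower where the 8 arrays were fitted alone. Epithelial markers had 3 of 3 lower, such as EPCAM by 0.49, but 1 without the replicate block. Blood cell markers had 1 of 4 lower, CD68 by 0.59, and 0 without the replicate block. Endothelial markers had 1 of 3 lower, VWF, at least 1.53-fold.

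Immediate-early genes need separate mention, because 24 h replicate 3 stood apart in them. They had 8 of 20 higher (40.0%, against 22.9% of all genes) and 1 lower (5.0%, against 21.1%), with a median of 0.52. FOSB, an AP-1 subunit, had 6.61, 7.12, 10.55 and 7.30 at 24 h, against 5.79, 5.45, 5.04 and 6.87 at 4 h, and rose by 2.11 (SE 0.49, limma adjusted p = 0.000811). Without replicate 3 FOSB rose by 1.21 (limma adjusted p = 0.0174). That array was the highest of the 4 in 16 of the 20 immediate-early genes and in 27.7% of all genes. Without it 5 of the 20 were higher and 2 lower, with a median of 0.29. The count of higher genes was also 5 without 24 h replicate 2 or without the replicate block, and 4 without 4 h replicate 3. FOS rose by 1.11 (SE 0.35, limma adjusted p = 0.0123), a call that ended without 24 h replicate 2 (0.78) or 3 (0.96) or 4 h replicate 3 (0.97).

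The same time difference was then set beside that in siNS cells, which share no array with the siHic5_2 groups. In siNS cells 42.4% of the genes were called, 2587 higher (21.8%) and 2457 lower (20.7%). Higher in both were 1762 genes, 64.8% of those higher in siHic5_2 and 68.1% of those higher in siNS. Lower in both were 1608 genes, 64.1% of those lower in siHic5_2 and 65.4% of those lower in siNS. Called in opposite directions were 91 genes, 57 of them higher in siHic5_2. Across the 11886 genes, which are not independent, the 2 sets of differences correlated at r = 0.77, those of siHic5_2 and NI at 0.75, and those of siNS and NI, the controls, at 0.94, each pair from separate arrays on the 6 slides of the study. Of the 30 leading genes, 29 were called in the same direction in siNS cells. The exception, DLC1, was above background on no siNS array at 24 h or 4 h, but on all 4 at 0 h.

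A test of the difference between the 2 changes called 9.55% of the genes, 601 with a more positive (5.06%) and 534 with a more negative change (4.49%) in siHic5_2 cells. Without the replicate block it called 382 genes (3.21%), 211 (1.78%) and 171 (1.44%). The block was kept, although numbers did not clearly pair the arrays of siHic5_2 or of siNS cells, so both counts are given. With arrays scaled to a common median 68.6% of the called probes had the more positive change, against 54.7% here. Over probes the test called 7.99%, 4.37% more positive and 3.62% more negative. Set against NI cells, it called 11.2% of the genes (6.26% more positive and 4.95% more negative) and 9.88% of the probes (5.64% and 4.24%; 91.4% of calls more positive with arrays scaled to a common median, against 57.1%). The 20 genes described next had pair differences that did not overlap between siHic5_2 and siNS cells, which the choice of genes required. All 20 were also called without the block, and against NI cells with the same sign. The first uses the arrays that chose the genes and the second the same siHic5_2 arrays, so neither is a separate check.

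SLCO2A1, a prostaglandin transporter, was the gene with the largest positive difference. Its siHic5_2 pairs differed by -0.35, 0.35, -0.18 and 0.59, and its siNS pairs by -5.14, -4.41, -2.65 and -3.70. It fell in siNS cells and was not called in siHic5_2 cells. It averaged 10.71 ± 0.37 at 24 h and 10.61 ± 0.29 at 4 h in siHic5_2 cells, and 6.52 ± 0.68 at 24 h and 10.49 ± 0.65 at 4 h in siNS cells (SD, n = 4 each). The difference was 4.08 (SE 0.36, limma adjusted p = 6.83e-09, without the block 2.94e-05). ARC, an immediate-early gene of synapses, fell by 2.06 in siHic5_2 cells and fell by 4.38 in siNS cells (difference 2.33, limma adjusted p = 0.00137). The vascular gene APOLD1 differed by 0.21 in siHic5_2 cells and by -2.53 in siNS cells, ZNF365 by -0.48 and -2.73, and the methyltransferase TMT1B by 0.56 and -1.80. The limma adjusted p of the difference for these 3 was at most 0.000371. APOLD1 averaged 6.60, 8.98 and 6.44 at 0, 4 and 24 h in siNS cells, so its 24 h level there was close to that before hormone. In siHic5_2 cells it averaged 5.72, 7.22 and 7.42. ARC averaged 8.07, 10.02 and 5.63 at these times in siNS cells, and 7.26, 10.68 and 8.63 in siHic5_2 cells.

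ID3, an inhibitor of basic helix-loop-helix factors and a BMP target, rose in siHic5_2 cells and fell in siNS cells. Its pairs differed by 0.60, 0.87, 2.08 and 1.44 in siHic5_2 cells and by -1.13, -1.09, -1.13 and -1.05 in siNS cells (difference 2.35, SE 0.33, limma adjusted p = 2.45e-05). The microtubule protein MAP1B rose by 1.21 in siHic5_2 cells and fell by 1.25 in siNS cells, and the MAP kinase phosphatase DUSP2 rose by 1.29 and fell by 1.53 (limma adjusted p of the differences 0.000334 and 0.00373). DUSP2 had 9.45, 9.36, 12.09 and 9.62 in siHic5_2 cells at 24 h, and without replicate 3 its rise was not called (0.71, limma adjusted p = 0.21), while the difference from siNS was (2.25, limma adjusted p = 0.0148). KLF10, a Krüppel-like factor induced by TGF-beta, had 6.81, 6.62, 9.36 and 6.50 in siHic5_2 cells at 24 h and was not above background at 4 h. In siHic5_2 cells KLF10 had averaged 7.82 ± 0.28 at 0 h and ID3 12.13 ± 0.58. Their means at 24 h, 7.32 and 11.20, did not pass those levels before hormone. KLF10 was at least 2.29-fold higher at 24 h than at 4 h in siHic5_2 cells. In siNS cells KLF10 averaged 5.86 ± 0.50 at 24 h and 6.66 ± 0.37 at 4 h. GPM6B rose in both, and its 4 siHic5_2 pairs (4.16 to 5.29) lay above its siNS pairs (1.49 to 3.09; limma adjusted p of the difference 4.55e-07). All 20 genes were also called without 24 h replicate 3, on arrays that had served to choose them.

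ITGA2, the collagen-binding integrin alpha2 subunit, had, of these 20 genes, the difference with the smallest p. Its siHic5_2 pairs differed by -2.28, -1.73, -2.69 and -2.67, and its siNS pairs by 0.83, 0.68, 0.51 and 0.56 (difference -2.99, SE 0.22, limma adjusted p = 3.17e-10, without the block 1.78e-06). At 24 h the levels were close, 7.22 ± 0.39 in siHic5_2 and 7.15 ± 0.21 in siNS cells, whereas at 4 h they were 9.57 ± 0.68 in siHic5_2 and 6.51 ± 0.22 in siNS cells (SD, n = 4 each). MMP3, stromelysin, showed the same form. It averaged 6.65 ± 0.83 at 24 h and 9.66 ± 0.56 at 4 h in siHic5_2 cells, and 5.54 ± 0.27 at 24 h and 5.71 ± 0.63 at 4 h in siNS cells. MMP3 was above background on 1 siNS array at these times, so no size is given for its difference (limma adjusted p = 0.000195). DLC1 and the salivary peptide gene HTN1 were above background in siHic5_2 cells at 4 h, at 8.02 ± 0.65 and 7.72 ± 1.25, and not at 24 h. On siNS arrays neither was above it at 24 h or 4 h. DLC1 had averaged 6.96 ± 0.51 in siNS cells at 0 h, above background on all 4 arrays, and 5.98 ± 0.30 at 2 h, on 1 array. It was thus already at background in siNS cells by 4 h. HTN1 was at least 3.19-fold lower at 24 h than at 4 h in siHic5_2 cells. HTN1 and SAA1 have near-identical relatives, and whether their probes also detect them was not tested.

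The other negative differences belong to genes that were higher at 24 h in siNS cells. TEDDM1 averaged 6.48 ± 1.21 at 24 h and 5.30 ± 0.12 at 4 h in siHic5_2 cells, above background on 2 and 0 arrays. In siNS cells it averaged 11.65 ± 0.53 at 24 h and 5.66 ± 0.49 at 4 h (SD, n = 4 each), and the limma adjusted p of the difference was 6.83e-09. Transglutaminase TGM2, a protein cross-linker, had siHic5_2 pairs of 1.37, 0.12, 1.51 and -0.42, and siNS pairs of 4.13, 4.15, 3.12 and 4.43. It was not called in siHic5_2 cells and rose by 3.96 in siNS cells (difference -3.31, SE 0.43, limma adjusted p = 5.87e-06). The neurotrophin receptor NTRK3 was at least 8.48-fold higher at 24 h in siNS cells, and the potassium channel KCNJ16 at least 5.84-fold. In siHic5_2 cells NTRK3 was above background on 2 arrays at 24 h and 0 at 4 h, and KCNJ16 on none. The chemokine scavenger ACKR2 averaged 5.70 ± 0.86 at 24 h and 5.66 ± 0.25 at 4 h in siHic5_2 cells, and 9.08 ± 0.63 at 24 h and 6.13 ± 0.40 at 4 h in siNS cells. SAA1 fell by 0.83 in siHic5_2 cells and was at least 1.90-fold higher at 24 h in siNS cells. The limma adjusted p of the difference for these 4 was at most 2.24e-05.

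**Figure D4:**
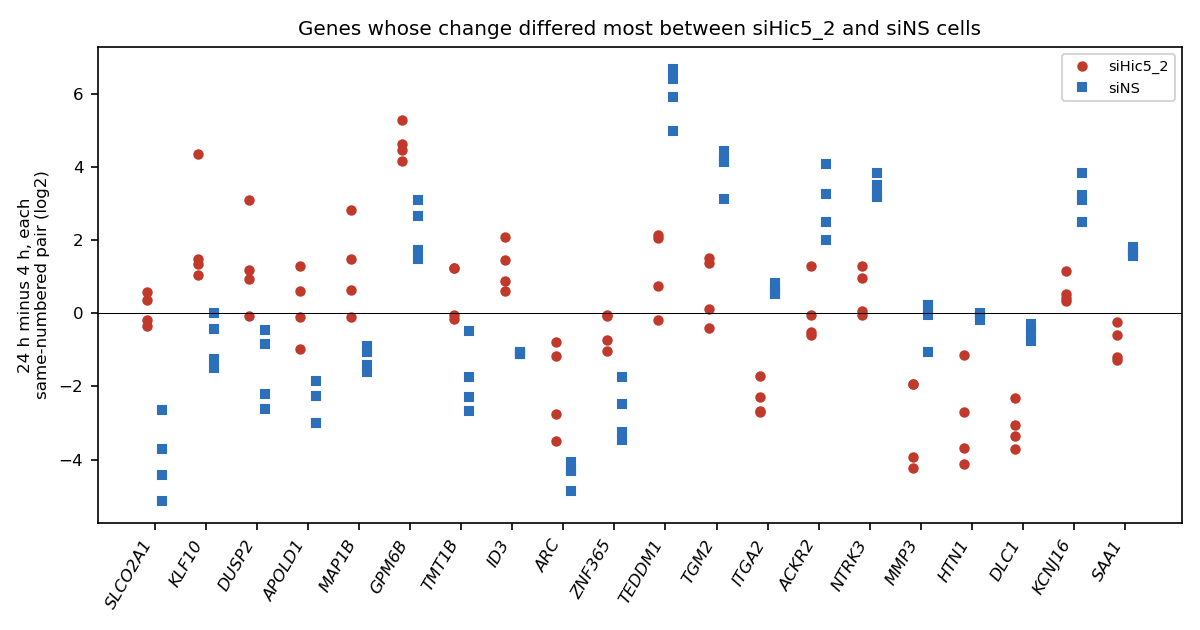
Log2 difference of 24 h minus 4 h in each same-numbered pair (y axis) for the 20 genes whose change differed most (x axis), siHic5_2 as red circles to the left of siNS as blue squares. For each gene the 4 siHic5_2 points lie apart from the 4 siNS points, which the choice of genes required. KLF10 and DUSP2 have 1 high siHic5_2 point each, 4.34 and 3.10.

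The gene lists showed where the 2 changes were alike and where they were not. DNA replication genes had 0 higher and 36 lower of 37 in siNS cells (median -1.09), and the difference was called for 0 and 1 of them. Mitosis genes had 0 higher and 26 lower of 39 in siNS cells (median -0.56), and the difference was called for 0 and 1. Glucocorticoid-induced genes had 17 higher and 1 lower of 35 in siNS cells (median 0.46), and the difference was called for 5 and 3 (3 and 2 without the block). KLF9 rose more in siHic5_2 than in siNS cells (difference 0.94, limma adjusted p = 0.0238, without the block 0.18). Its 24 h levels were 12.36 ± 0.38 in siHic5_2 and 12.39 ± 0.23 in siNS cells, and its 4 h levels 10.53 ± 0.41 in siHic5_2 and 11.50 ± 0.35 in siNS cells. Immediate-early genes had 0 higher and 9 lower of 20 in siNS cells (median -0.35). Their difference was called for 10 in the positive direction and 0 in the negative (5 and 0 without the block, 9 and 0 without 24 h replicate 3), including ATF3 (2.01), DUSP5 (1.97) and JUND (0.69), 3 of the 5 called without it. TGF-beta/SMAD targets had 7 higher and 13 lower of 24 in siNS cells (median -0.67), and the difference was called for 6 and 1 (3 and 1 without the block), ID1 (1.84) and ID3 among the 6, which also hold TGFB1I1 itself.

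Matrix genes had 6 higher and 13 lower of 28 in siNS cells, with the difference called for 0 and 7 (0 and 2 without the block), such as COL6A1, which rose by 1.18 in siHic5_2 and by 3.10 in siNS cells. Integrins and adhesion adaptors had 6 higher and 15 lower of 39, with the difference called for 2 and 7 (0 and 4 without the block). ITGA1, the alpha1 subunit, was not above background in siHic5_2 cells at either time and on all 4 siNS arrays at 24 h (limma adjusted p of the difference 9.22e-09). LPXN fell by 1.10 in siNS cells (limma adjusted p of the difference 0.0277, without the block 0.403). For each list the share is to be read against the 5.06% and 4.49% of all genes.

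**Figure D5:**
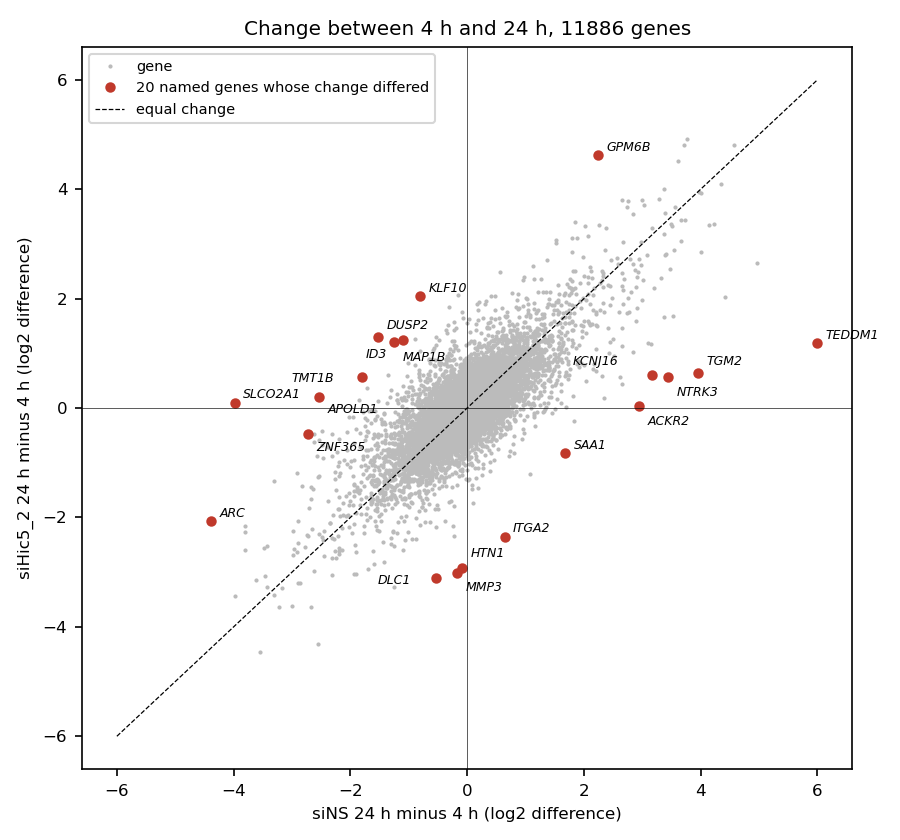
Log2 difference of 24 h minus 4 h in siNS cells (x axis) and in siHic5_2 cells (y axis) for 11886 genes (grey), with the 20 genes whose change differed most in red and a dashed line of equal change. Most genes lie along the line (r = 0.77), SLCO2A1 lies at -3.98 and 0.10, and TEDDM1 at 5.99 and 1.19.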

How the data were processed

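Expression was measured on 48 bead arrays, 12 groups of 4. The deposited tables hold raw bead intensity and detection p-value columns, per the file headers, and the authors' processed log2 values. R 2.15.3 and limma 3.14.4 are named in the submitters' processing notes, and no source used here states the normalization. Array medians were 5.422 to 5.425, and ranks equalled those of the raw intensities on 48 of 48 arrays. These log2 values were used, and their scale was read from values recomputed here with neqc, which differed by up to 0.262.

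Deposited p-value columns stood under the wrong array names: 0 arrays matched their own and 32 another's. Detection p was recomputed from 770 negative controls. These were inferred from the steps in the p-value columns of the 32 matched arrays. The largest gap, 0.0013, is from those same 32, so it is no separate check and does not cover the other arrays. Probes under 0.01 on at least 4 arrays were kept (20912 of 47323), and 15904 of these had 1 gene symbol. A gene is the kept probe with the highest mean (11886 genes). Columns of no sample numbered 0. The number of arrays, 4 per group, limits precision: the median SE was 0.169 for a difference and 0.24 for a difference of differences.

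One limma model (3.58.1, R 4.3.3) of 12 group means, with the replicate number within transfection state as a block, left 27 residual degrees of freedom. Figures used matplotlib 3.10.9. Correlations of same-numbered 24 h and 4 h deviations were 0.113 to 0.276 in siHic5_2 cells, 0.099 to 0.671 in siNS cells and 0.039 to 0.637 in NI cells. In siHic5_2 replicate 3 (0.128) an array of another number correlated more strongly, at up to 0.204. So it did in siNS replicates 2 (0.099) and 4 (0.157), at up to 0.272 and 0.217. Numbers therefore did not clearly pair the arrays of either state. In all, 4 results were tested: the siHic5_2 and siNS changes, and their difference against siNS and NI. The fit was tested on simulated data. Where a group was not above background on any array, a bound replaces the fold. Named were the 15 highest and 15 lowest called differences with 1 sign in 4 pairs, the 10 highest and 10 lowest differences from siNS, up to 4 called genes per list and a fixed set. The comparison, members and gene lists were chosen with earlier results of these data known.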

Additional observations from a re-analysis of the deposited data

Results flagged for a closer look

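For SLCO2A1, KLF10, DUSP2, APOLD1, MAP1B, GPM6B, TMT1B, ID3, ARC and ZNF365 the change between 4 h and 24 h was more positive in siHic5_2 than in siNS cells, by a fitted log2 difference of 4.08, 2.85, 2.82, 2.74, 2.45, 2.39, 2.36, 2.35, 2.33 and 2.26. DNER (1.15) and NRCAM (1.14) also passed that limma test. It was more negative for TEDDM1 (-4.81), TGM2 (-3.31), ITGA2 (-2.99), ACKR2 (-2.92), NTRK3 (-2.87), MMP3 (-2.84), HTN1 (-2.83), DLC1 (-2.59), KCNJ16 (-2.55), SAA1 (-2.51), SCG5 (-2.03), MARCHF4 (-1.76), PLAC8 (-0.95) and SFTA1P (-0.92). In KLF10, GPM6B, TEDDM1, ACKR2, NTRK3, MMP3, HTN1, DLC1, KCNJ16, SAA1, SCG5 and MARCHF4 a group was not above background, so the fitted value is no size. In all 1670 probes passed, 537 without the replicate block.

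Single arrays stood far from the other 3 of their group in 10 of 120 groups looked at; chance flags about 1 in 20. At 24 h these were replicate 3 in KLF10 (9.36, the others 6.50 to 6.81), DUSP2 (12.09, 9.36 to 9.62), TGFBI (5.54, 6.41 to 6.58) and LPXN (6.94, 7.34 to 7.37), replicate 1 in ACTL8 (11.22, 12.18 to 12.29) and ACKR2 (6.97, 5.08 to 5.40), and replicate 2 in SFTA1P (7.48, 6.65 to 6.73). At 4 h they were replicate 1 in SFTA1P (10.96, 11.43 to 11.50) and replicate 2 in PXN (8.38, 8.66 to 8.72) and TSC22D3 (10.76, 10.98 to 11.02). The cause was not tested.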

How the results depend on the processing

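The 8223 probes called for siHic5_2 24 h minus 4 h (39.3%) were 6230 without the replicate block and 5654 with only the arrays of the contrast fitted. They were 5382 with 1 probe per gene, where 11886 were tested, and 7231 to 7682 when 1 of the 8 arrays was left out. For siNS 7692 probes were called (6776 to 7223 with 1 array left out), 5709 without the replicate block and 6391 with only the arrays of the contrast fitted. The difference from siNS was called for 1670 probes (1228 to 1725 with 1 array left out), 537 without the replicate block, 708 with arrays scaled to a common median and 455 with only the arrays of the contrast fitted. The difference from NI was called for 2066 probes (1532 to 2336), 670 without the replicate block and 379 with its own arrays alone. Scaling to a common median moved the median of all probes by 0.07, 0.06 and 0.28 for siHic5_2 and for the differences from siNS and NI. It moved the share of calls that were higher to 60.1%, against 51.0%, for siHic5_2 24 h minus 4 h (3808 higher and 2526 lower, against 4192 and 4031). The share of calls that were more positive moved to 68.6%, against 54.7%, for the difference from siNS. For the difference from NI it moved to 91.4%, against 57.1%. PER1 reversed with the slide as a block (-0.09) and without 24 h replicate 3 (-0.24) or 4 h replicate 2 (-0.17; 0.45 at most, without 24 h replicate 1), and ACTB with median scaling (-0.06). Neither was called in the report's fit. For the 30 leading genes all 480 alternative values kept direction and call, and for the 20 genes that differed from siNS 479 of 480 did, the exception being DUSP2 fitted on the arrays of the contrast alone. Over all 164 results for named genes, 2687 of 2778 did and 87 were no longer called. Without the replicate block 11 of the 164 lost their call, among them SESN2, DHCR7, SLC7A11, NDUFA9, ATP5MC1, GUSB, KRT14 and CD68. The cause was not tested. Signal over background limits the 103 higher and 77 lower genes measured on 1 side only to bounds.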
